A study of Homo sapiens with 2 samples.

Results

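Levels of 9 BCL2 family genes, of 30796 genes in the deposited table, were measured in single cells of MDAMB468 and CAL51, human lines derived from triple-negative breast cancers. The genes were chosen by name, as regulators of apoptosis that carry BCL2 homology regions: BCL2, BCL2L1, MCL1, BAK1, BID, BAD, BIK, BCL2L11 and BCL2L12. Each symbol matched 1 Ensembl identifier, and all 9 passed the filter of at least 20 unique molecular identifiers (UMIs, the tags that count captured RNA molecules) over both libraries. Both lines were labelled breast and triple-negative, meaning without oestrogen receptor, progesterone receptor or amplified ERBB2, and no treatment was labelled. There was 1 Drop-seq library per line, a method that captures 3′ ends of polyadenylated RNA from cells lysed in droplets, so no difference has a replicate check and every interval is a 95% interval for counting error alone.

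For MDAMB468 there were 306 barcodes and 5501900 UMIs, with a median of 10016.5 UMIs per barcode. CAL51 was represented by 1346 of its 1377 barcodes, with 16223444 UMIs and a median of 8635 UMIs, because 31 barcode sequences also occurred in MDAMB468 and were left out of CAL51. Of the barcodes used, 64 in MDAMB468 and 7 in CAL51 were satellites, defined as differing by 1 base from another barcode of their own line whose UMIs were 5 times as many or more. The receptor genes stood at 3 and 0 UMIs for ESR1, 1 and 1 for PGR and 39 and 262 for ERBB2, in MDAMB468 and CAL51 respectively. Of the 5 breast epithelial genes listed, EPCAM stood at 867 and 283 CPM (counts per 1000000 UMIs of each library). KRT19 stood at 1934 and 30.6 CPM, KRT8 at 764 and 919 and KRT18 at 555 and 1555. The cadherin CDH1 had 182 UMIs in MDAMB468 and 7 in CAL51, the larger library. Its counts are not scaled to the library totals. Of the basal epithelial genes listed, the keratin KRT5 had 2224 and 0 UMIs. The others of that list are not reported here, so the list as a whole is not read. The fibroblast list was low except for COL1A2, with 0 UMIs in MDAMB468 and 863 in CAL51. The detected blood genes PTPRC and LYZ reached 3 UMIs and 1 UMI in CAL51 and 0 in MDAMB468.

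Proteins of this family set whether the outer mitochondrial membrane is opened during apoptosis. Guardians such as BCL2, BCL-xL (encoded by BCL2L1) and MCL1 hold the membrane closed, the effectors BAK (BAK1) and BAX form the pores, and BH3-only proteins such as BID, BIM (BCL2L11), BAD, BIK and NOXA (PMAIP1) bind guardians or activate effectors. Breast cancers are known to depend on MCL1 and BCL-xL to differing degrees, and drugs that mimic BH3 proteins target single guardians. Protein isoforms with opposite effects, such as the long and short forms of BCL-x and of MCL1, share their 3′ ends and were not told apart by these counts.

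The family differed between the lines in its make-up rather than in 1 direction. BID and BIK, both BH3-only genes, and the guardian MCL1 were at least 2-fold higher in MDAMB468. The guardians BCL2 and BCL2L1 were at least 2-fold lower in MDAMB468, and BAK1, BAD, BCL2L11 and BCL2L12 did not reach 2-fold. These are 3 of 9 members higher, where 15.8% of the 15347 genes with at least 20 UMIs were that far higher, and 2 of 9 lower, where 18.6% of genes were. In either direction 34.4% of genes passed 2-fold. Among the 7068 genes with a mean level within the range of the members, 14.2% were higher and 18.7% lower. The median log2 difference of the members was -0.10, beside -0.13 over all genes tested, and nothing particular to the family is read from 9 genes.

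**Figure D1:**
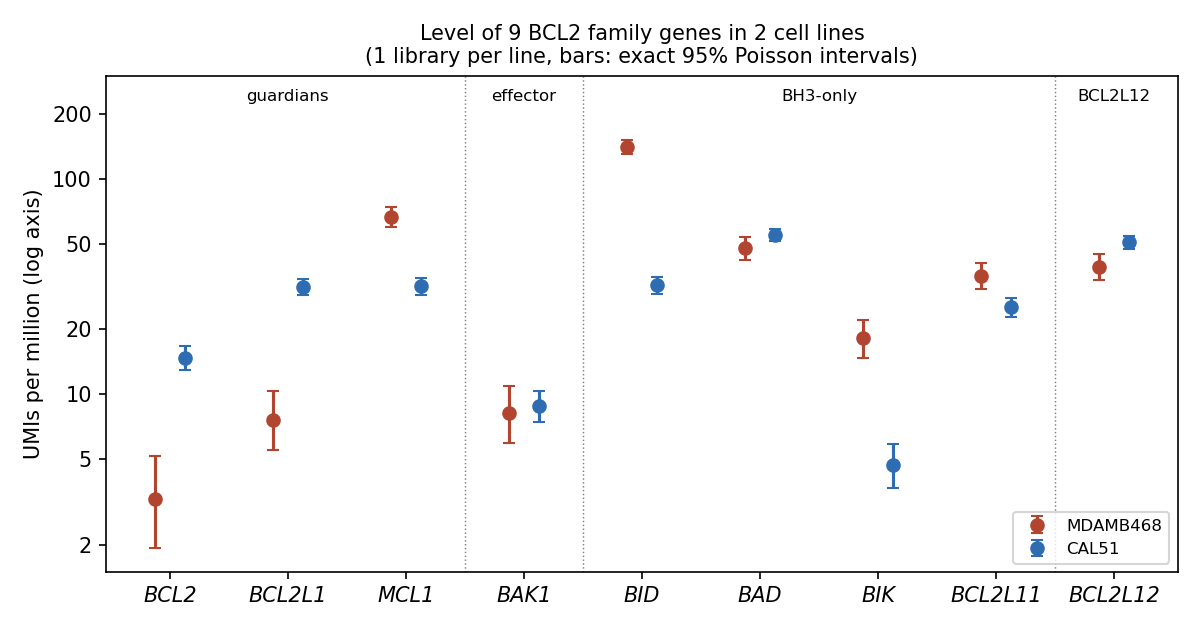
Level of each gene in CPM (counts per 1000000 UMIs, log axis) in MDAMB468 and CAL51, grouped by role, with points for the summed library and bars for exact 95% Poisson intervals. BID stands at 140 in MDAMB468 and 32.0 in CAL51, whereas BCL2L1 stands at 7.63 and 31.5.

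Among the guardians, MCL1 (ENSG00000143384; GRCh38, chromosome 1, 150574551 to 150579738, minus strand), which encodes a short-lived protein, had 365 UMIs in MDAMB468 and 513 in CAL51. These levels were 66.3 CPM (interval 59.7 to 73.5) and 31.6 CPM (interval 28.9 to 34.5). The excess in MDAMB468 was 2.10-fold (interval 1.83 to 2.40), and the log2 difference of CPM + 1 was 1.05. The intervals of the levels did not overlap, but the 2-fold mark lay inside the interval of the ratio. The log2 difference fell under 1 with TMM scaling (0.92), with median-of-ratios scaling (0.90), after thinning every barcode to 1000 UMIs (0.93) and with a pseudocount of 10 CPM (0.88).

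BCL2L1 (ENSG00000171552; chromosome 20, 31664452 to 31723989, minus strand) had 42 UMIs in MDAMB468 and 511 in CAL51. Its levels were 7.63 CPM (interval 5.5 to 10.3) and 31.5 CPM (interval 28.8 to 34.4). CAL51 thus exceeded MDAMB468 by 4.13 times (interval 3.01 to 5.80). The log2 difference of -1.91 placed it lower in MDAMB468 in all settings, but was -0.98 after thinning to 1000 UMIs, where 4 of the 306 MDAMB468 barcodes held a BCL2L1 UMI. BCL2 (ENSG00000171791; chromosome 18, 63123346 to 63320128, minus strand), the founding member of the family, had 18 UMIs in MDAMB468 and 240 in CAL51. Its levels were 3.27 CPM (interval 1.94 to 5.17) and 14.8 CPM (interval 13.0 to 16.8). The excess in CAL51 was 4.52-fold (interval 2.80 to 7.76), and the log2 difference of -1.89 came to -0.90 with a pseudocount of 10 CPM. The intervals of the ratios of BCL2 and BCL2L1 overlapped, so the counts do not order them. Of the 18 BCL2 UMIs in MDAMB468, 27.8% lay in 1 barcode.

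The guardians were thus mixed in different proportions. In MDAMB468, MCL1 made up 85.9% of the UMIs of the 3 guardians, BCL2L1 9.88% and BCL2 4.24%. In CAL51 the shares were 40.6% for MCL1, 40.4% for BCL2L1 and 19.0% for BCL2. Counted as UMIs within a library, MCL1 exceeded BCL2L1 by 8.69 times in MDAMB468 (interval 6.30 to 12.3) and by 1.0 times in CAL51 (interval 0.886 to 1.14). Each UMI stands for 1 captured 3′ end whatever the length of its transcript, so levels of different genes were set side by side without dividing by length, though capture can differ between genes.

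Bases before the start sites of BCL2L1 and BID, the members with the lowest and the highest log2 difference, are shown as sequence next to the genes that set the lines apart. They come from RefSeq (build GRCh38.p14), which held a start for 7 of the 9 genes, and where it listed several starts the one nearest to the annotated gene start was taken (BID has 5 listed starts and BCL2L1 has 2). Each run is the 250 bases before the start, 5′ to 3′ on the minus strand, on which both genes lie. In GENCODE, 26 bases at the end of the BCL2L1 window and 105 bases at the end of the BID window lie inside the annotated gene. The BCL2 window lies wholly inside an annotated BCL2 exon and is not printed. Capitals mark TATAAA read on either strand, the only one of the searched motifs found in the windows of BCL2L1, BID and BCL2.
BCL2L1, chr20:31723964-31724213: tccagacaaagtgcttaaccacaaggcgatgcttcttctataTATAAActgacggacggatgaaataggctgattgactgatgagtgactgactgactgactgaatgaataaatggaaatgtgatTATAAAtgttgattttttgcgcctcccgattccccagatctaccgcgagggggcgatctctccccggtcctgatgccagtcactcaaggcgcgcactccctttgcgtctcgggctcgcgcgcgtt
BID, chr22:17774666-17774915: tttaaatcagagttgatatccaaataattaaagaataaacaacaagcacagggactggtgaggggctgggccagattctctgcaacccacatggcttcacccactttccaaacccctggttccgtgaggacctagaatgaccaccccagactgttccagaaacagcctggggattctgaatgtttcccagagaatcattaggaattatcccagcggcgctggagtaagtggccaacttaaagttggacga

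The windows differ in base composition. G and C made up 70.0% of the BCL2 window, with 24 CpG dinucleotides, 50% of the BCL2L1 window, with 17, and 47.6% of the BID window, with 4. The median over the windows of 27305 genes, each at its first listed start, was 58.0% G and C and 11 CpG. TATAAA began at -208 and -125 from the BCL2L1 start, and 11.1% of all windows of this length held it. Also searched on both strands were CACGTG (in 6.49% of all windows), TGACTCA or TGAGTCA (4.16%), TGACGTCA (1.77%), TTTGGCGC or TTTCGCGC (0.996%), GGGCGG (42.3%) and CCAAT (33.0%). Among the other members, GGGCGG and CCAAT occurred in the windows of BAK1, BAD and BCL2L11, with 3 copies of GGGCGG before BCL2L11, and no searched motif occurred before BCL2L12. A match is a stretch of letters and not a measured site, and the counts contain no measurement of binding.

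BAK1 (ENSG00000030110; chromosome 6, 33572547 to 33580293, minus strand), which encodes the pore-forming effector BAK, had the smallest difference of the members. Its 45 UMIs in MDAMB468 gave 8.18 CPM (interval 5.97 to 10.9), and the 143 UMIs of CAL51 gave 8.81 CPM (interval 7.43 to 10.4). MDAMB468 over CAL51 came to 0.928 (interval 0.648 to 1.31), so a difference within that range was not detectable at this depth. The direction is not given, since the log2 value of -0.10 lay anywhere between -0.35 and 0.12 in other settings, the latter after thinning to 1000 UMIs, where only 2 MDAMB468 and 8 CAL51 barcodes held a BAK1 UMI and the gene was under the filter.

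The BH3-only genes fell into different patterns. BID (ENSG00000015475; chromosome 22, 17734138 to 17774770, minus strand), which links death receptors to mitochondria after caspase-8 cleavage, had 772 UMIs in MDAMB468 and 519 in CAL51. Its levels were 140 CPM (interval 131 to 151) and 32.0 CPM (interval 29.3 to 34.9). The excess of BID in MDAMB468 was 4.39-fold (interval 3.92 to 4.91), and its log2 difference of 2.10 stayed between 1.84 and 2.31 in every setting, at percentile 93.1 of all genes tested. It was the most abundant member in MDAMB468. The sequence before the start shown is the least G and C rich of these 3 windows, a feature of that 1 of its 5 listed starts.

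BIK (ENSG00000100290; chromosome 22, 43110748 to 43129712, plus strand), whose product acts at the endoplasmic reticulum, was seen as 100 UMIs in MDAMB468, or 18.2 CPM (interval 14.8 to 22.1). CAL51 gave 76 UMIs, or 4.68 CPM (interval 3.69 to 5.86). MDAMB468 exceeded CAL51 by 3.88 times (interval 2.85 to 5.30), with a log2 difference of 1.75 that came to 0.94 with a pseudocount of 10 CPM, and after thinning to 1000 UMIs it was under the filter. BIK was the least abundant member in CAL51. BCL2L11 (ENSG00000153094; chromosome 2, 111119378 to 111168447, plus strand), encoding the activator BIM, had 195 UMIs (35.4 CPM, interval 30.6 to 40.8) and 411 UMIs (25.3 CPM, interval 22.9 to 27.9). Its ratio of 1.40 (interval 1.17 to 1.66) was under 2-fold, and its log2 difference of 0.47 ran from 0.06, as a mean of CPM over barcodes, to 1.15, after thinning to 1000 UMIs. The gene MIR4435-2HG, with 432 and 619 UMIs, runs on the opposite strand across the whole of BCL2L11.

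BAD (ENSG00000002330; chromosome 11, 64269830 to 64284704, minus strand), a BH3-only gene whose product is held inactive by phosphorylation, stood at 47.6 CPM in MDAMB468 (262 UMIs, interval 42.0 to 53.7) and at 55.0 CPM in the other line (892 UMIs, interval 51.4 to 58.7). Its ratio of 0.866 (interval 0.752 to 0.995) lay close to 1, and its log2 difference of -0.20 was -0.08 relative to the median of all genes, though it came to -0.76 after thinning to 1000 UMIs. BCL2L12 (ENSG00000126453; chromosome 19, 49665142 to 49673916, plus strand), a distant family member put on neither side of the balance because its role is not settled, had 215 UMIs (39.1 CPM, interval 34.0 to 44.7) and 822 UMIs (50.7 CPM, interval 47.3 to 54.3). Its ratio was 0.771 (interval 0.661 to 0.897) and its log2 difference -0.37, or -0.24 when set against that median, which scaling moved by -0.13 to 0.09. Relative to that median, the sign of BCL2L12 turned after thinning to 1000 UMIs. BAD shares 14643 bases with GPR137 on the opposite strand (65 and 117 UMIs), and BCL2L12 shares 734 bases with IRF3 (188 and 464 UMIs), so part of their counts may depend on the strand setting of the counting, a setting not given in the sources used here.

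**Figure D2:**
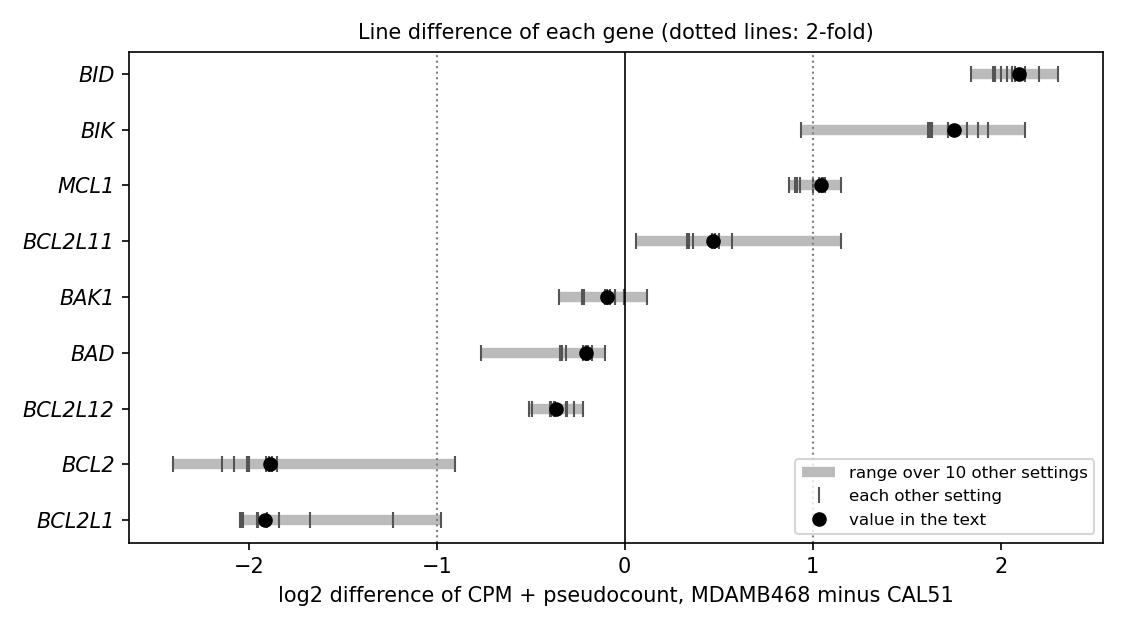
Log2 difference of each gene, MDAMB468 minus CAL51, with the value in the text as a black point, the other 10 settings as ticks and their range as a grey bar. BID stays between 1.84 and 2.31 in all of them, while the range of BAK1 crosses 0.

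The order of levels differed between the lines. In MDAMB468, BID led, followed by MCL1, and their intervals were separate from each other and from the rest. BAD, BCL2L12 and BCL2L11 followed, each with an interval that overlapped that of its neighbour, then BIK alone, then BAK1 and BCL2L1, which overlapped, and then BCL2. In CAL51, BAD and BCL2L12 led with overlapping intervals. BID, MCL1 and BCL2L1 followed at 32.0, 31.6 and 31.5 CPM, levels that the counts do not tell apart, and then came BCL2L11, BCL2, BAK1 and BIK, each separate from the next. Among the 15347 genes tested, BID stood at level percentile 92.0 in MDAMB468 and 67.7 in CAL51, whereas BCL2L1 stood at 39.5 and 67.4.

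Summed over the 3 guardians, the levels of the lines were nearly equal, and the difference in balance lay on the pro-apoptotic side. The guardians summed to 77.2 CPM in MDAMB468 (425 UMIs, interval 70.1 to 85.0). The sum in CAL51 was 77.9 CPM (1264 UMIs, interval 73.7 to 82.3), and their ratio was 0.991 (interval 0.886 to 1.11). BAK1, BID, BAD, BIK and BCL2L11 summed to 1374 UMIs (250 CPM, interval 237 to 263) and 2041 UMIs (126 CPM, interval 120 to 131). MDAMB468 carried 1.99 times as much (interval 1.85 to 2.13). Guardians made up 23.6% of these UMIs in MDAMB468 (exact binomial interval 21.7% to 25.7%) and 38.2% in CAL51 (interval 36.6% to 39.9%). BID alone made up 56.2% of the pro-apoptotic UMIs in MDAMB468 and 25.4% in CAL51, where BAD led with 43.7%.

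The size of the gap in balance depended on which genes were counted. Without BID, an alternative added after the data were seen, the guardian share of MDAMB468 was 41.4% (interval 38.4% to 44.5%). That of CAL51 was 45.4% (interval 43.5% to 47.2%). The intervals overlapped, which does not show that the shares were equal. Without MCL1 they were 4.18% (interval 3.21% to 5.35%) and 26.9% (interval 25.3% to 28.6%). With 2 further guardians found in the table and 6 further pro-apoptotic genes, BAX among them, they were 18.9% (interval 17.4% to 20.5%) and 26.3% (interval 25.1% to 27.4%). Transcript sums weigh each gene equally and are no measure of protein or of its activity.

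**Figure D3:**
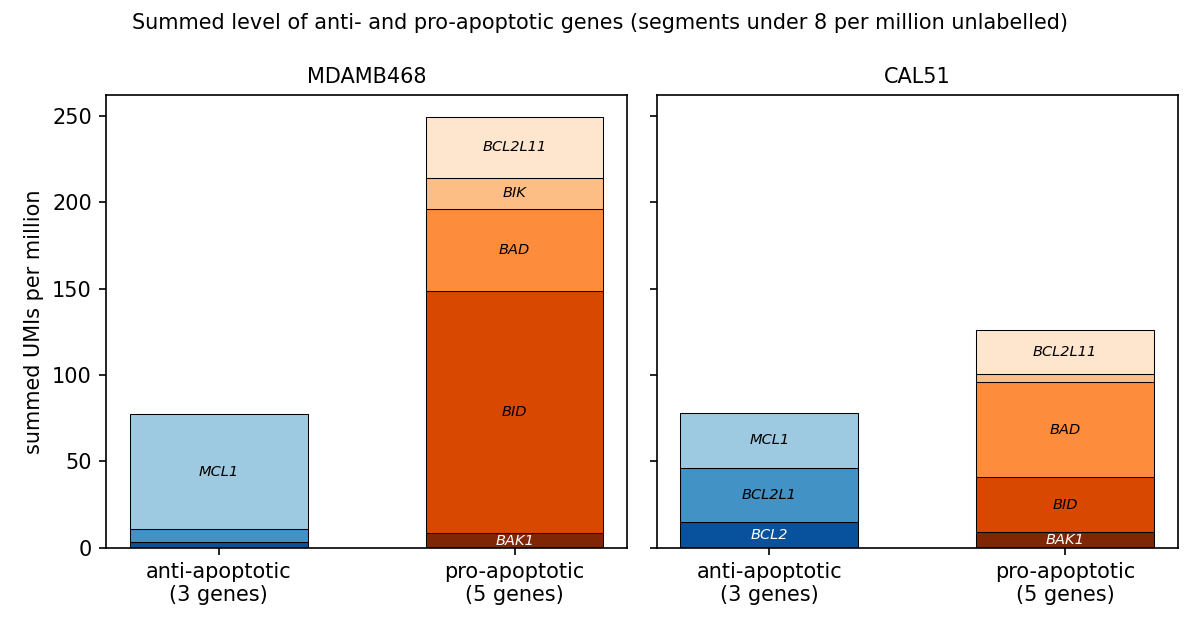
Summed level in CPM of the 3 anti-apoptotic and 5 pro-apoptotic genes in each line, stacked by gene. The anti-apoptotic bars reach 77.2 in MDAMB468 and 77.9 in CAL51 with different make-up, and the pro-apoptotic bars reach 250 and 126.

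The differences were spread over many barcodes. Among barcodes with at least 20000 UMIs, 91 in MDAMB468 (median 30301 UMIs) and 183 in CAL51 (median 27258), BID was detected in 98.9% of MDAMB468 barcodes (interval 94% to 99.97%) and 58.5% of CAL51 barcodes (interval 51.0% to 65.7%). BID UMIs per barcode had a lowest value of 0, a median of 5 and a highest of 22 in MDAMB468, and 0, 1 and 9 in CAL51. MCL1 was detected in 85.7% (interval 76.8% to 92.2%) and 62.3% (interval 54.8% to 69.3%), with a median of 2 and 1 UMIs. For BCL2L1 the order was turned, with detection in 23.1% (interval 14.9% to 33.1%) and 58.5% (interval 51.0% to 65.7%). BCL2 was detected in 9.89% (interval 4.62% to 17.9%) and 35.5% (interval 28.6% to 42.9%), and BIK in 51.6% (interval 40.9% to 62.3%) and 10.9% (interval 6.80% to 16.4%). All 3 guardians were detected together in 3 of the 91 MDAMB468 barcodes and 31 of the 183 CAL51 barcodes. Exactly 1 guardian was detected in 59 and 67 of them.

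After thinning to 1000 UMIs, BID was detected in 12.7% of all MDAMB468 barcodes (interval 9.22% to 17.0%) and 3.19% of CAL51 barcodes (interval 2.32% to 4.28%), against 74.5% and 26.8% without thinning. For BCL2L1 the thinned shares were 1.31% (interval 0.357% to 3.31%) and 2.53% (interval 1.76% to 3.51%), which overlap, and the unthinned shares were 12.7% and 27.0%. Neither line is a cell type that should lack these genes. As a gauge of RNA carried between libraries, KRT5, with 2224 UMIs in MDAMB468, had 0 in the CAL51 barcodes used, which allows up to 0.185 CPM. The 31 barcodes left out of CAL51 held 40 KRT5 UMIs, so this gauge holds only after their removal.

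Across called cell cycle phases, intervals of most members overlapped, which at these counts does not show that their levels were equal. Phases were called within each line from S and G2M genes that include no member, after thinning to 1000 UMIs, and 27.8% of MDAMB468 and 22.9% of CAL51 barcodes lay within 0.05 score units of a boundary. In MDAMB468, 79 barcodes were called G1, 101 S and 126 G2M. In CAL51, 163 were called G1 (median depth 6768 UMIs), 461 S (8137) and 722 G2M (9239). A pair of phases with separate intervals was found for BCL2L12 in MDAMB468 and for BIK and BCL2L12 in CAL51. These are 1 and 2 of 9 members, where the same rule held for 8.12% and 17.8% of the 15347 genes tested and for 7.76% and 14.8% of those with UMIs in the line within the range of the members, so the counts are not a result about the family. Intervals overlapped only in part for BAK1 in MDAMB468, at 5.27 CPM in S (9 UMIs) and 11.4 in G2M (27 UMIs). The same held for BCL2 in CAL51, at 9.74 CPM in G1 (15 UMIs) and 16.2 in G2M (153 UMIs). It held as well for BAD in MDAMB468, at 40.4 CPM in S and 55.1 in G2M. MCL1 did so in both lines, at 74.9 CPM in S and 61.0 in G2M of MDAMB468. In CAL51 its levels were 39.6 CPM in G1 and 30.3 in G2M. In these pairs each level lay outside the interval of the other phase, so they came close to being called separate.

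In CAL51, BIK stood at 11.0 CPM in G1 (interval 6.43 to 17.7), 4.77 in S (interval 3.09 to 7.05) and 3.60 in G2M (interval 2.49 to 5.03). BCL2L12 took the opposite order in CAL51, with 31.2 CPM in G1 (interval 23.0 to 41.3), 48.5 in S (interval 42.7 to 54.8) and 55.1 in G2M (interval 50.4 to 60.0). In MDAMB468, BCL2L12 had no such order, with 48.2 CPM in G1 (interval 37.5 to 61.0), 27.5 in S (interval 20.2 to 36.6) and 41.9 in G2M (interval 34.1 to 51.1), and without thinning before the phase call no pair of its phases was separate. The levels of BIK and BCL2L12 in CAL51 were separate between G1 and G2M also without thinning and without satellites, and without thinning BCL2L1 in CAL51 was separate as well (42.3 CPM in G1 and 25.9 in S). MCL1 ran from 61.0 to 74.9 CPM over the phases of MDAMB468 and from 30.3 to 39.6 CPM in CAL51. In each line the intervals of its highest and lowest phase overlapped, but only in part. The guardian share was 22.2% to 26.2% over the phases of MDAMB468 and 36.8% to 39.1% in CAL51, so the ranges of the lines did not meet. The part of the depth gap between phases in these differences was not tested.

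**Figure D4:**
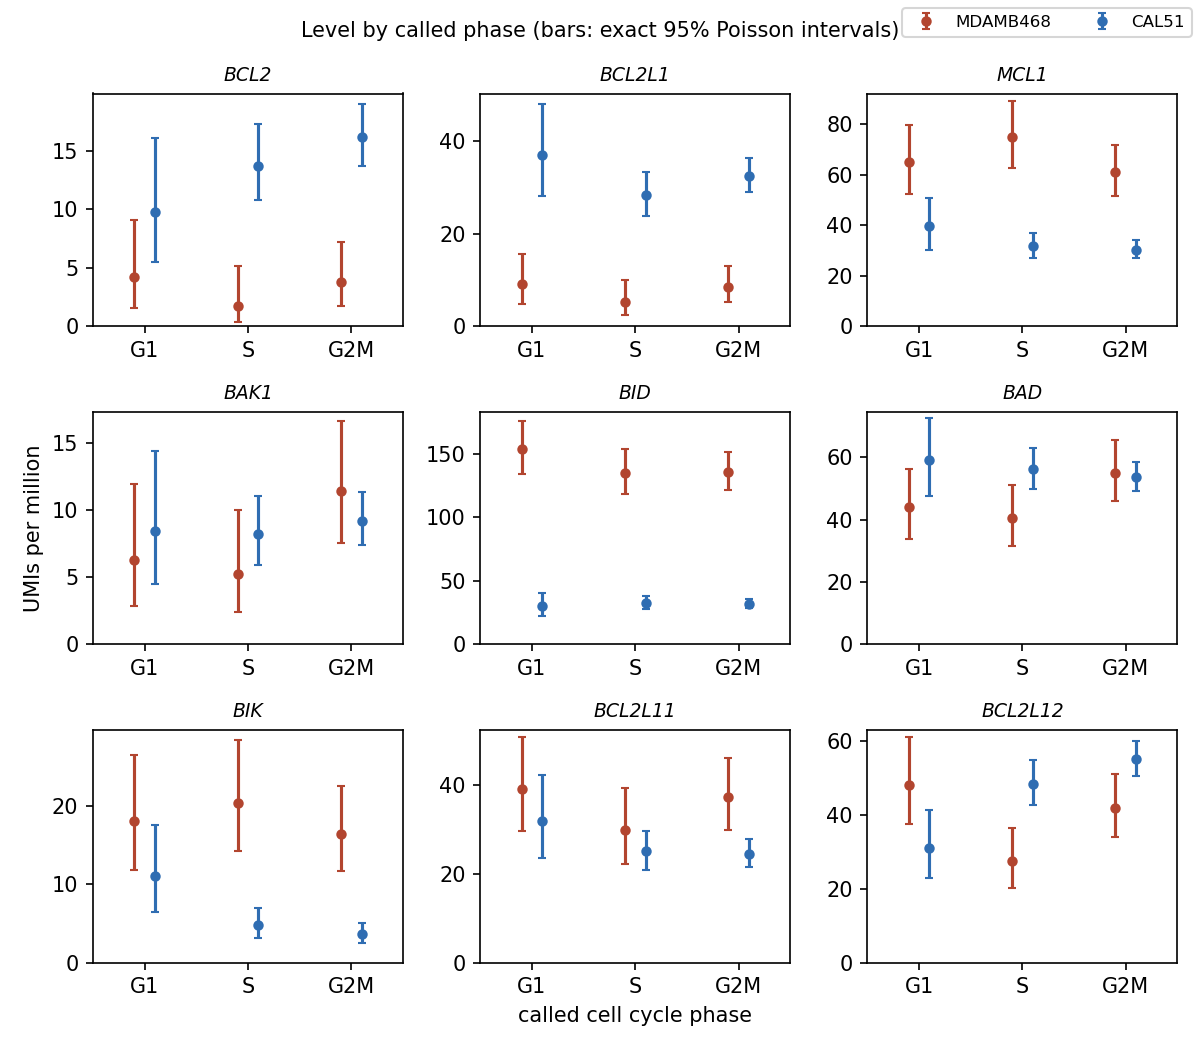
Level of each gene in CPM in barcodes called G1, S and G2M, for MDAMB468 and CAL51, with exact 95% Poisson intervals as bars. In CAL51, BIK is highest in G1 at 11.0 and BCL2L12 is lowest there at 31.2.

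Clusters were formed in each line without the 9 genes, and in CAL51 BIK spanned the widest fold range between them. A pair of clusters had separate intervals for 6 of 9 members in CAL51 and 1 of 9 in MDAMB468, where the same rule held for 34.1% and 15.8% of all genes tested and for 33.5% and 16.3% of those within the members' range of UMIs. The clusters were drawn from other genes of the same cells, so these shares and counts are a description. At resolution 0.2 CAL51 formed a single cluster, so no pair could be compared. Cluster 4 (236 barcodes, led by TSTD1, COL1A2 and CD24) had 27 BIK UMIs, 11.3 CPM (interval 7.47 to 16.5), and cluster 2 (254 barcodes, led by COL2A1, NTS and ENC1) had 2, 0.740 CPM (interval 0.0897 to 2.67), at median depths of 7367 and 8102 UMIs. BCL2L11 was lowest in cluster 4, at 14.3 CPM (interval 9.88 to 19.9), against 30.9 CPM (interval 25.3 to 37.2) in cluster 3 (238 barcodes, led by PLK1, CENPE and PSRC1). BCL2L12 was highest in cluster 3, whose leading genes act in mitosis, at 62.6 CPM (interval 54.6 to 71.4), against 40.9 CPM (interval 35.1 to 47.4) in cluster 1 (288 barcodes, led by CDKN1A, TSPYL2 and BTG2). BID, BCL2L1 and BAD each had a pair of separate clusters as well, but that of BCL2L1 was lost without satellites, which left 5 members. BID stood at 24.6 CPM in cluster 0 (interval 19.4 to 30.6; 321 barcodes, led by SNHG3, DHRS2 and EIF4EBP1) and 39.0 CPM in cluster 4 (interval 31.5 to 47.8). BCL2L1 stood at 23.9 CPM in cluster 0 (interval 18.9 to 29.9) and 38.9 CPM in cluster 2 (interval 31.8 to 47.0).

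The guardian share nevertheless stayed between 36.0% and 40.4% over the 5 CAL51 clusters of more than 9 barcodes, with overlapping intervals. In MDAMB468 it stayed between 22.9% and 24.6% over the 3 such clusters. These were led by interferon genes such as IFIT2 and IFNL1 (cluster 0), by ADAMTS1, DCD and H2BC5 (cluster 1) and by CENPE, PIF1 and DLGAP5 (cluster 2). BID ran from 132 to 146 CPM over those MDAMB468 clusters and MCL1 from 64.8 to 68.8 CPM. Another cluster of 9 MDAMB468 barcodes, 8 of them satellites, held 6 of the 18 BCL2 UMIs of the library. All satellites of MDAMB468 together held 1 BCL2 UMI, so those of this cluster lay mostly in its remaining barcode. The highest BCL2 count in any MDAMB468 barcode was 5. No member had separate clusters in MDAMB468 without satellites.

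The remaining BCL2 family genes also moved in both directions. Of 14 listed, 13 were in the table and 10 passed the filter, with 3 higher and 3 lower past 2-fold and a median log2 difference of -0.21. PMAIP1, encoding the MCL1 partner NOXA, had 402 UMIs in MDAMB468 and 277 in CAL51 (73.1 and 17.1 CPM), a 4.28-fold higher level in MDAMB468 (interval 3.66 to 5.01). BAX, the effector that works beside BAK, had 207 and 1576 UMIs (37.6 and 97.1 CPM), 2.58-fold more in CAL51 (interval 2.23 to 3.0), though its log2 difference of -1.35 was -0.84 after thinning to 1000 UMIs. In UMIs, BAX exceeded BAK1 by 4.6 times in MDAMB468 (interval 3.32 to 6.50) and by 11.0 times in CAL51 (interval 9.28 to 13.2), intervals that do not overlap. PMAIP1 and MCL1 stood at a ratio of 1.10 in MDAMB468 (interval 0.953 to 1.27) and 0.540 in CAL51 (interval 0.465 to 0.626).

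BOK, a BAX-like effector, had 46 and 56 UMIs (log2 difference 1.07) and HRK, a BH3-only gene, had 14 and 12 (1.03), but both fell under 1 with TMM and median-of-ratios scaling and with a pseudocount of 10 CPM. BMF, a BH3-only gene, had 10 and 84 UMIs (-1.13) and BNIP3L, a mitophagy receptor, had 180 and 1108 (-1.04), and both fell short of 2-fold in at least 1 setting. BCL2L2 (59 and 213 UMIs, log2 difference -0.27), whose locus has a read-through transcript, BBC3 (33 and 110 UMIs, -0.15), encoding PUMA, BCL2L13 (209 and 524 UMIs, 0.23) and BNIP3 (304 and 1343 UMIs, -0.57) did not reach 2-fold. The signs of BCL2L2, BBC3 and BCL2L13 turned in 1 setting each. BCL2L10 (3 and 3 UMIs), BCL2L14 (9 and 3) and BCL2L15 (4 and 6) were under the filter.

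Further along the pathway, 1 of 13 apoptosome and caspase genes was past 2-fold higher in MDAMB468 and 3 were lower. CYCS, encoding cytochrome c, which is released through the pores, stood at 607 CPM in MDAMB468 and 259 in CAL51 (log2 difference 1.22), although its processed pseudogenes make the count uncertain. APAF1, the scaffold that cytochrome c assembles, stood at 12.4 and 27.1 CPM (-1.07), and its difference came to -0.73 with a pseudocount of 10 CPM. AIFM1, a mitochondrial flavoprotein, stood at 101 and 82.5 CPM (0.29). Among 6 inhibitor of apoptosis genes 1 was higher and 1 lower. BIRC3 was 17.1-fold higher in MDAMB468 (110 and 19 UMIs, interval 10.4 to 29.4). NAIP, which lies in a repeated locus, had 1 and 115 UMIs, a ratio of 39.0 in favour of CAL51 with a counting interval of 6.86 to 1554, and its log2 difference of -2.77 came to -0.75 with a pseudocount of 10 CPM. XIAP (66.0 and 70.2 CPM, log2 difference -0.09) had a sign that turned with the setting, and BIRC2 stood at 62.7 and 46.0 CPM (0.44).

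In the death receptor pathway, whose signal BID carries to mitochondria, 0 of 10 genes were past 2-fold higher and only CASP10 was lower (5 and 80 UMIs, log2 difference -1.64), falling short with a pseudocount of 10 CPM. The receptors TNFRSF10A (0.71) and TNFRSF10B (-0.62) and the adaptor TRADD (0.59) had log2 differences under 1. Of 8 outer membrane partners, VDAC3 (98.5 and 226.6 CPM, -1.19), a channel, and DNM1L (101.6 and 207 CPM, -1.02), a fission enzyme, were lower in MDAMB468. TOMM20 (0.56) and VDAC2 (0.19), which binds BAK, were under 2-fold. Of 6 genes in the list named MCL1 turnover, FBXW7, a ubiquitin ligase subunit, was 4.33-fold higher in CAL51 (117 and 1493 UMIs, interval 3.58 to 5.27). The deubiquitinase USP9X stood at 58.0 and 121 CPM (-1.05). With the total that left out mitochondrial and ribosomal protein genes, DNM1L (-0.92) and USP9X (-0.95) fell short of 2-fold. The ligase HUWE1 (0.22) and DESI1 (0.27) were under 2-fold. DESI1 was in that list by choice, and the counts do not show a part of it in MCL1 turnover.

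Among 8 upstream regulators 3 were past 2-fold higher and 1 lower. MYC (244.5 and 26.6 CPM, log2 difference 3.15) and JUN (197 and 22.2 CPM, 3.09) were higher in MDAMB468 in all settings. FOXO1 had 2 and 375 UMIs, a ratio of 63.6 in favour of CAL51 with an counting interval of 17.5 to 527, and E2F1 stood at 3.09 and 6.72 CPM (-0.92, past 2-fold lower in 4 settings, TMM among them). Over all 7 lists, 8 of 61 tested genes were past 2-fold higher and 13 lower, against the same 15.8% and 18.6% of all genes. This split came to 6 and 15 with TMM or median-of-ratios scaling and to 8 and 8 with a total that left out mitochondrial and ribosomal protein genes. All genes moved the same way, from 46.0% of calls higher to 39.9% with TMM, 39.3% with median of ratios and 51.0% with that total. Of these 61 genes, the one with the line difference closest to that of BID and of BIK was PMAIP1 (2.03), and that closest to BCL2 and to BCL2L1 was FBXW7 (-2.06). With 2 libraries this likeness is only a similar size of 1 difference.

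**Figure D5:**
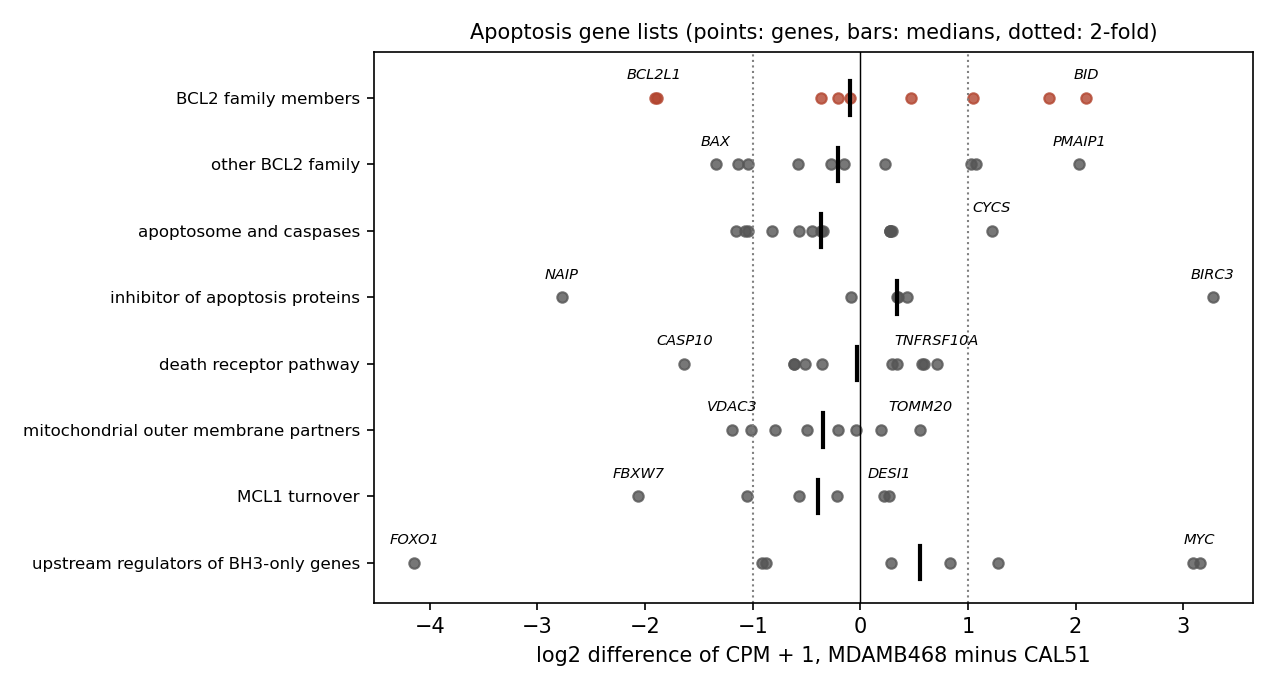
Log2 difference of CPM + 1, MDAMB468 minus CAL51, for the 9 BCL2 family genes and 7 further apoptosis lists, with 1 point per gene with at least 20 UMIs, a bar at each median and the lowest and highest gene of most lists named. The medians lie between -0.39 and 0.56, and single genes such as MYC at 3.15 and FOXO1 at -4.14 lie far from them.

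The members lie on 8 chromosomes, and their neighbours were examined to place each difference beside that of its surroundings. The 10 nearest tested genes around BID had a median log2 difference of -0.09, with 1 past 2-fold higher and 3 lower, so the level of BID stood apart in size from that median. Around BIK, on the same chromosome, the median was 0.79 and 5 of 10 were higher. Around BCL2L1 it was -1.08, with 5 of 10 lower and 0 higher. Among these 10 was ABALON, a transcript on the opposite strand within BCL2L1, with 3 and 30 UMIs. Around BCL2 the median was -1.17, with 5 of 10 lower and 1 higher. Around MCL1 it was 0.26, with 3 higher and 0 lower. For members under 2-fold, the median was 0.66 around BAD (2 higher, 0 lower) and -0.06 around BAK1 (1 higher, 0 lower). It was 0.10 around BCL2L11 (3 higher, 2 lower) and -0.37 around BCL2L12 (1 higher, 1 lower). Over all genes tested, 15.8% were past 2-fold higher and 18.6% lower. Gene copy number was not measured, and its part in these differences was not tested.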

How the data were processed

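UMI counts per gene and barcode were deposited by the authors as 1 whole-number matrix for both lines, with no normalisation visible in the values. STARsolo is named in the submitters' processing notes, without a version. Its genome build and annotation, not given in the sources used here, are unknown. Barcode names start with the cell line, which assigned each barcode to its library. The 31 CAL51 barcodes whose 12-base sequence also occurs in MDAMB468 were left out. Symbols were found for 30730 of 30796 identifiers, and gene positions are those of GENCODE release 29 on GRCh38.

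Counts were summed per line and scaled to CPM. Differences are log2 of CPM + 1, MDAMB468 minus CAL51, a scale that understates differences of genes with few counts. Levels carry exact Poisson intervals, shares exact Clopper-Pearson intervals, and ratios exact intervals conditional on the total count. With 1 library per line no test was run. A gene was called past 2-fold at a log2 difference of at least 1 in size and at least 20 UMIs over both libraries, and a count of 0 was given the limit that 3 counts set. The fold and interval computation was tested on simulated data. Clusters came from scanpy 1.11.5 and leidenalg 0.10.2, separately per line (2000 variable genes without the 9 members, 30 components, 15 neighbours, resolution 0.5), and phases from 43 S and 54 G2M genes. Intervals were called separate when some pair of groups did not overlap, a definition set after the values were seen. No doublet was sought or removed. Python 3.11.15 and edgeR 4.0.16 (TMM factors alone) were used.

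The members and lists were chosen with earlier results of these data known. Named genes are all members, all detected genes of the remaining BCL2 family, and the 2 highest and 2 lowest log2 differences of each further list, and for each member the listed gene with the closest difference was sought. A gene that this rule names is not reported here. The leading genes of clusters, MIR4435-2HG, GPR137, IRF3 and ABALON were named after their values were seen. The alternatives changed the barcodes, their weight, the scaling, the pseudocount, the filter, the thinning, the cluster resolution and the genes counted in the balance.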

Additional observations from a re-analysis of the deposited data

Results flagged for a closer look

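The 31 barcodes left out of CAL51 held member UMIs above the 3 counts that 0 allows. Their 135240 UMIs included 30 of BID, 8 of BAD, 8 of BCL2L12 and 4 of BCL2L11. BID stood at 222 CPM there (interval 150 to 317), beside 140 CPM in MDAMB468 and 32.0 CPM in the CAL51 barcodes used. Its interval lies above both levels, but it overlaps the interval of the MDAMB468 level (131 to 151). BCL2L1 had 1 UMI and BCL2 had 0 in these barcodes. They also held 40 UMIs of KRT5 and 347 of KRT19, genes with 0 and 496 UMIs in the CAL51 barcodes used. These counts are not scaled to the totals, 135240 UMIs in the left-out barcodes and 16223444 in the CAL51 barcodes used.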

How the results depend on the processing

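All 9 members kept the sign of their log2 difference in every setting run, except BAK1 after thinning to 1000 UMIs, where BAK1 and BIK were under the filter of 20 UMIs. Relative to the median of all genes, BAK1 and BCL2L12 also turned in 1 setting each. With a pseudocount of 10 CPM, 1 member was past 2-fold higher and 1 lower in MDAMB468, and thinning to 1000 UMIs left 1 lower.
The guardian share in MDAMB468 and CAL51 (23.6% and 38.2% in the report) was 4.18% and 26.9% without MCL1, 31.8% and 50.5% with BCL2L12 counted as a guardian, 18.9% and 26.3% with the remaining BCL2 family, 41.4% and 45.4% without BID, 9.06% and 33.0% without MCL1 and BID, and 26.0% and 40.1% after thinning to 1000 UMIs. The share stayed lower in MDAMB468 in each of these. Barcodes with a UMI of any member (32.7% and 23.0% at 1000 UMIs) were 56.2% and 40.3% at 2000 UMIs and 89.5% and 84.9% without thinning. Members with separate phases in MDAMB468 went from 1 to 0 without thinning. Members with separate clusters went from 1 to 0 in MDAMB468 at resolution 0.2 and without satellites, and from 6 to 0 in CAL51 at resolution 0.2, where 1 cluster formed. Of all genes, 2429 were higher and 2847 lower past 2-fold. Thinning, which left 8159 genes tested, gave 842 higher and 2111 lower (28.5% of calls higher, against 46.0%), and a pseudocount of 10 CPM gave 1046 higher and 1146 lower. Over the apoptosis lists, 13 genes were lower, against 8 without mitochondrial and ribosomal protein genes in the total and 5 with a pseudocount of 10 CPM. The cause of these shifts was not tested where the construction of the setting does not show it. The alternatives of choosing BID or MCL1 and BID to leave out, and of leaving out the top barcode of each member, were chosen after seeing the data, and no call of a member changed without its top barcode. No paired analysis was possible because each line has 1 library. Depth limits BCL2 most, with 18 UMIs in MDAMB468.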
